A study of Homo sapiens with 48 samples.

Results

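SUDHL6 cells that received an EZH2 inhibitor on top of a DOT1L inhibitor were compared with SUDHL6 cells that received the DOT1L inhibitor alone. SUDHL6 is an established line from a diffuse large B cell lymphoma whose cells resemble germinal centre B cells, and it is known to carry an activating mutation of EZH2. The 6 libraries compared are the 3 SUDHL6 combination libraries and the 3 SUDHL6 DOT1Li libraries, taken by cell line and treatment from the column headers of the count table, out of 48 libraries in all. Combination cells were treated with EPZ-5676 and GSK343. DOT1Li cells were treated with EPZ-5676, the DOT1L inhibitor, which the treatment label spells EZP-5676. Both groups therefore share 6 days of DOT1L inhibition, and the added GSK343, the EZH2 inhibitor (EZH2i), is what differs between them. A pair of further SUDHL6 groups is used below, EZH2i cells treated with GSK343 alone and DMSO cells treated with vehicle, each with 3 libraries. The same treatments were given to Oci-Ly7, Oci-Ly8 and Oci-Ly18, which are lymphoma lines of the same type. The study asked how the enzymes act on the identity of germinal centre B cells, and this comparison asks what EZH2 inhibition adds once DOT1L is already inhibited. The sources used here give no doses. Nothing in the labels says that replicates came from separate cultures, and the p-values therefore cover the spread among these libraries, which may be technical.

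EZH2 is the methyltransferase of Polycomb repressive complex 2 (PRC2). The complex methylates histone H3 on lysine 27, a mark of silent genes. In germinal centre B cells EZH2 is abundant and keeps down cell cycle brakes and genes of exit and differentiation. DOT1L methylates histone H3 on lysine 79 over the bodies of transcribed genes. Both drugs block the catalytic activity of their enzyme and do not remove its mRNA.

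Library totals ran from 14369641 to 16114360 counts in combination libraries and from 11772251 to 13933661 in DOT1Li libraries. Levels are given in CPM, counts scaled to the size of each library with edgeR's TMM factors. CPM are not corrected for length. Groups are compared within a gene, while the bins of level and the sums over lists below carry gene length as well. A group with 0 counts in all 3 libraries allows up to 3 counts over the group, or 0.0588 CPM in combination and 0.0700 CPM in DOT1Li libraries, which covers counting error only. Several library properties moved with the groups. The share of counts from mitochondrial genes was 7.48 to 7.53% in combination and 6.07 to 6.42% in DOT1Li libraries, and the number of genes expected at the lowest SUDHL6 total was 20351 to 20421 in combination and 18959 to 19244 in DOT1Li libraries. Regressed on exonic length, both in log2, CPM gave a slope of 0.975 to 0.991 in combination and 0.946 to 0.956 in DOT1Li libraries. The part of these differences in the results was not tested. In the cell type check, the germinal centre marker MME was at 530 to 579 CPM in combination and 565 to 591 CPM in DOT1Li libraries, and the B cell factor PAX5 was at 824 to 915 CPM in combination and 768 to 839 CPM in DOT1Li libraries. SERPINA9, another germinal centre marker, had 0 counts in all 6 libraries. So did the T cell markers CD3D and CD2, GNLY of NK cells, HBB of red cells, EPCAM and CDH1 of epithelium, and SNAP25, STMN2 and RBFOX3 of neurons. Other markers of the check had counts. In combination and DOT1Li libraries TRAC of T cells averaged 15.6 and 8.92 CPM, and NKG7 of NK cells 6.34 and 3.90 CPM. In the same order, the myeloid markers LYZ and MPO averaged 14.9 and 17.2 CPM and 3.055 and 1.866 CPM. The fibroblast or endothelial markers COL1A1 and PDGFRB averaged 13.9 and 10.6 CPM and 12.7 and 6.07 CPM, and SYP of neurons 3.77 and 2.84 CPM.

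Adding EZH2i to DOT1Li raised 2542 of 17749 tested genes and lowered 1996 (edgeR's quasi-likelihood F test, Benjamini-Hochberg adjusted p under 0.05). These are 14.3% and 11.2% of the genes tested, and 25.6% were called in either direction. Large changes were mostly rises: 755 genes (4.25%) rose by a log2 fold change of at least 1, and 87 (0.49%) fell by as much. In fits of the SUDHL6 libraries alone the numbers were 2882 rises and 3001 falls, so that rises were 49% of calls against 56% here. With the 6 libraries alone rises were 48.4% of calls, and with the replicate number as a block 3098 genes rose and 2533 fell. At a log2 fold change of 2 the numbers were 265 and 16. The median was 0.64 among called rises, -0.34 among called falls and 0.03 over all genes tested. Of the tested genes, 901 had 0 counts in the 6 libraries and could not be called.

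Rises and falls sat at different levels of expression. Genes were placed by their mean CPM over the 6 libraries, with both groups weighted equally. Among the 1977 genes under 0.1 CPM, 18 rose (0.91%) and 4 fell (0.202%), and few counts limit what can be called there. Between 0.1 and 1 CPM, 348 of 2934 genes rose (11.9%) and 37 fell (1.26%). Between 1 and 10 CPM, 822 of 3876 rose (21.2%) and 136 fell (3.51%). Between 10 and 100 CPM, 1191 of 6801 rose (17.5%) and 1048 fell (15.4%). From 100 CPM upward falls outnumbered rises, with 163 of 2161 genes higher (7.54%) and 771 lower (35.7%). Rises by a log2 fold change of at least 1 numbered 18, 344, 304, 84 and 5 over these bins, and falls by as much 4, 37, 28, 11 and 7. Genes that do not code for protein made up 16.5% of the rises, 4.36% of the falls and 23.9% of the genes tested. Of 2669 long non-coding RNAs 332 rose (12.4%) and 43 fell (1.61%).

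**Figure D1:**
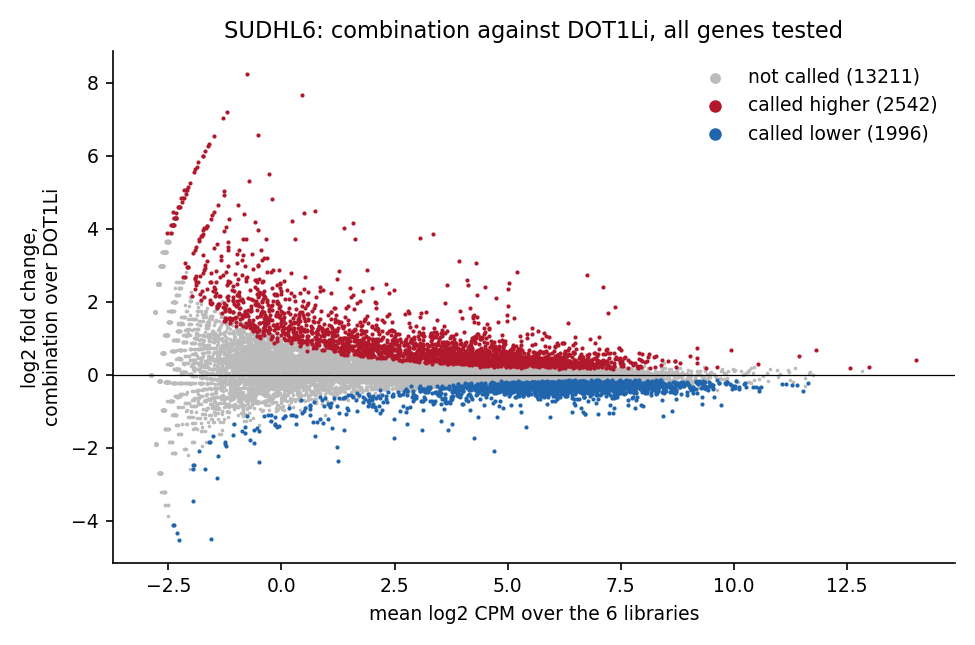
Log2 fold change of the combination over DOT1Li in SUDHL6 (vertical axis) against the mean log2 CPM over the 6 libraries (horizontal axis), 1 point per gene tested. Of 17749 genes 2542 were called higher and 1996 lower at an adjusted p under 0.05; the curved rows of points at the left are genes with few counts.

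The 8 largest rises among protein-coding genes with a mean log2 CPM of at least 1 and no overlap between libraries included several genes of immune cells. The lack of overlap was required by the choice. Without the filters, 43.1% of all genes tested had no overlap between the 3 and 3 libraries. CD86 (ENSG00000114013, GRCh38 chromosome 3, 122055362 to 122121139) encodes a ligand through which B cells costimulate T cells by CD28. Its level was 36.6, 44.98 and 33.1 CPM in the combination libraries, against 3.04, 2.84 and 2.08 CPM in the DOT1Li libraries. This is a log2 fold change of 3.85 ± 0.22 (SE; edgeR adjusted p = 4.74e-17). In cell lines, a rise in every cell and a larger share of cells that express a gene cannot be told apart from bulk RNA. BANK1 (ENSG00000153064, chromosome 4, 101411286 to 102074812) encodes an adaptor that links the B cell receptor to calcium release. It stood at 51.0, 60.7 and 58.7 CPM in combination libraries, against 5.76, 6.22 and 8.20 CPM in DOT1Li libraries (log2 fold change 3.07 ± 0.16, edgeR adjusted p = 2.19e-18). GZMA, a protease of the granules of killer lymphocytes, had 33.2, 35.03 and 22.4 CPM in combination libraries, against 3.12, 1.72 and 1.95 CPM in DOT1Li libraries (log2 3.76 ± 0.31, edgeR adjusted p = 4.02e-09).

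The other 5 encode transporters, adhesion and signalling proteins. SLC26A11, of the SLC26 family of anion transporters, had the largest fold change of the 8. It was at 11.96, 16.2 and 7.33 CPM in combination libraries, against 0.779, 0.463 and 0.739 CPM in DOT1Li libraries (log2 4.16 ± 0.29, edgeR adjusted p = 1.06e-15). KANK1, an adaptor of the actin cytoskeleton, was at 8.89, 6.07 and 15.9 CPM in combination libraries, against 0.312, 0.595 and 0.941 CPM in DOT1Li libraries (log2 4.01 ± 0.48, edgeR adjusted p = 8.96e-08). PTPRM, a receptor tyrosine phosphatase of cell contacts, was at 9.22, 9.71 and 13.3 CPM in combination and 0.390, 0.992 and 1.01 CPM in DOT1Li libraries (log2 3.71 ± 0.27). KANK1 and SLC26A11 were uneven among combination libraries. VGF, the precursor of secreted peptides of neurons and endocrine cells, was even among combination libraries, with 45.5, 45.96 and 42.5 CPM in combination and 6.93, 3.90 and 4.84 CPM in DOT1Li libraries (log2 3.11 ± 0.16, edgeR adjusted p = 7.48e-21). ENPP3, an ectoenzyme that cleaves nucleotides, was at 9.44, 13.2 and 7.09 CPM in combination and 1.09, 1.98 and 0.941 CPM in DOT1Li libraries (log2 2.87 ± 0.29).

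The promoters of CD86 and VGF are shown because both genes rose strongly from a low level while their promoters differ in CpG content. Each runs from 250 bases before to 50 bases after the RefSeq start (GRCh38.p14), 5′ to 3′ along the gene, with CpG dinucleotides in capitals. CD86 lies at chr3:122055112-122055411 on the plus strand and holds 3 CpG, with an observed over expected ratio of 0.299. VGF lies at chr7:101165520-101165819 on the minus strand and holds 35 CpG, with a ratio of 1.03.
CD86: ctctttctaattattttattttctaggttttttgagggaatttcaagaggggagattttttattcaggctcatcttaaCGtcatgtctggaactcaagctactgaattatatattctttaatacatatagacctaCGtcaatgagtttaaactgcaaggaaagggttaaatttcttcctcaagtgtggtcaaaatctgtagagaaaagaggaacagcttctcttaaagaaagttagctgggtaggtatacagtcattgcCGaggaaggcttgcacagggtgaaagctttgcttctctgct
VGF: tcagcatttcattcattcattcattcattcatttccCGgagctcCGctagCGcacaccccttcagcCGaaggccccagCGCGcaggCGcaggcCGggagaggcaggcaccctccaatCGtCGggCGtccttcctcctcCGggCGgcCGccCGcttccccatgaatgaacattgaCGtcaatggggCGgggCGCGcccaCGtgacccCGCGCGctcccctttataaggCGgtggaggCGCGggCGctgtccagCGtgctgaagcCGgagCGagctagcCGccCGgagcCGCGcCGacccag
Of the protein-coding genes tested, 80.9% had a promoter in the RefSeq table. Ratios under 0.4 were found in 17.2% of the 1702 called rises with a promoter, in 6.74% of the 1602 called falls and in 12% of all 10921. The median ratio was 0.805 for rises, 0.874 for falls and 0.832 for all. For changes by a log2 fold change of at least 1 the order was the other way, with ratios under 0.4 in 31.8% of 446 rises and 40.6% of 32 falls. Promoters were matched for 77.8% of those rises and 58.2% of those falls, under 80%, so the shares for large changes are void. A split of the large rises by level, matched at 75.5 to 79.4%, is void as well.

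The 8 largest falls, by the same rule, were smaller on the log2 scale than the 8 largest rises and spread over unrelated functions. GPER1 (ENSG00000164850, chromosome 7, 1082208 to 1093815), a membrane receptor for oestrogen, was at 14.3, 13.4 and 10.1 CPM in combination libraries, against 60.2, 56.1 and 45.4 CPM in DOT1Li libraries (log2 fold change -2.09 ± 0.24, edgeR adjusted p = 2.78e-08). CD4, the coreceptor of helper T cells, was at 0.659, 0.971 and 1.35 CPM in combination and 5.14, 4.56 and 5.51 CPM in DOT1Li libraries (log2 -2.36 ± 0.26). ABCG1, which exports cholesterol, was at 10.4, 13.1 and 8.62 CPM in combination and 38.3, 44.4 and 23.7 CPM in DOT1Li libraries (log2 -1.73 ± 0.22). BMPER, a secreted regulator of bone morphogenetic proteins, was at 2.91, 3.46 and 2.69 CPM in combination and 12.2, 11.4 and 6.99 CPM in DOT1Li libraries (log2 -1.75 ± 0.22). The synaptic adhesion gene NRXN2 fell by 1.97 and the spindle positioning gene MISP by 1.53 on the log2 scale. The protocadherin gene PCDH10 was at 3.68, 4.31 and 7.46 CPM in combination and 13.3, 14.5 and 16.3 CPM in DOT1Li libraries (log2 -1.52 ± 0.19). IFTAP, a gene of intraflagellar transport, was at 1.10, 1.64 and 1.71 CPM in combination and 3.82, 4.298 and 4.502 CPM in DOT1Li libraries (log2 -1.51 ± 0.29). IFTAP overlaps RAG2 on the opposite strand, which averaged 125.4 CPM in combination and 130.1 CPM in DOT1Li libraries, and the strand setting of the counting is not given.

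**Figure D2:**
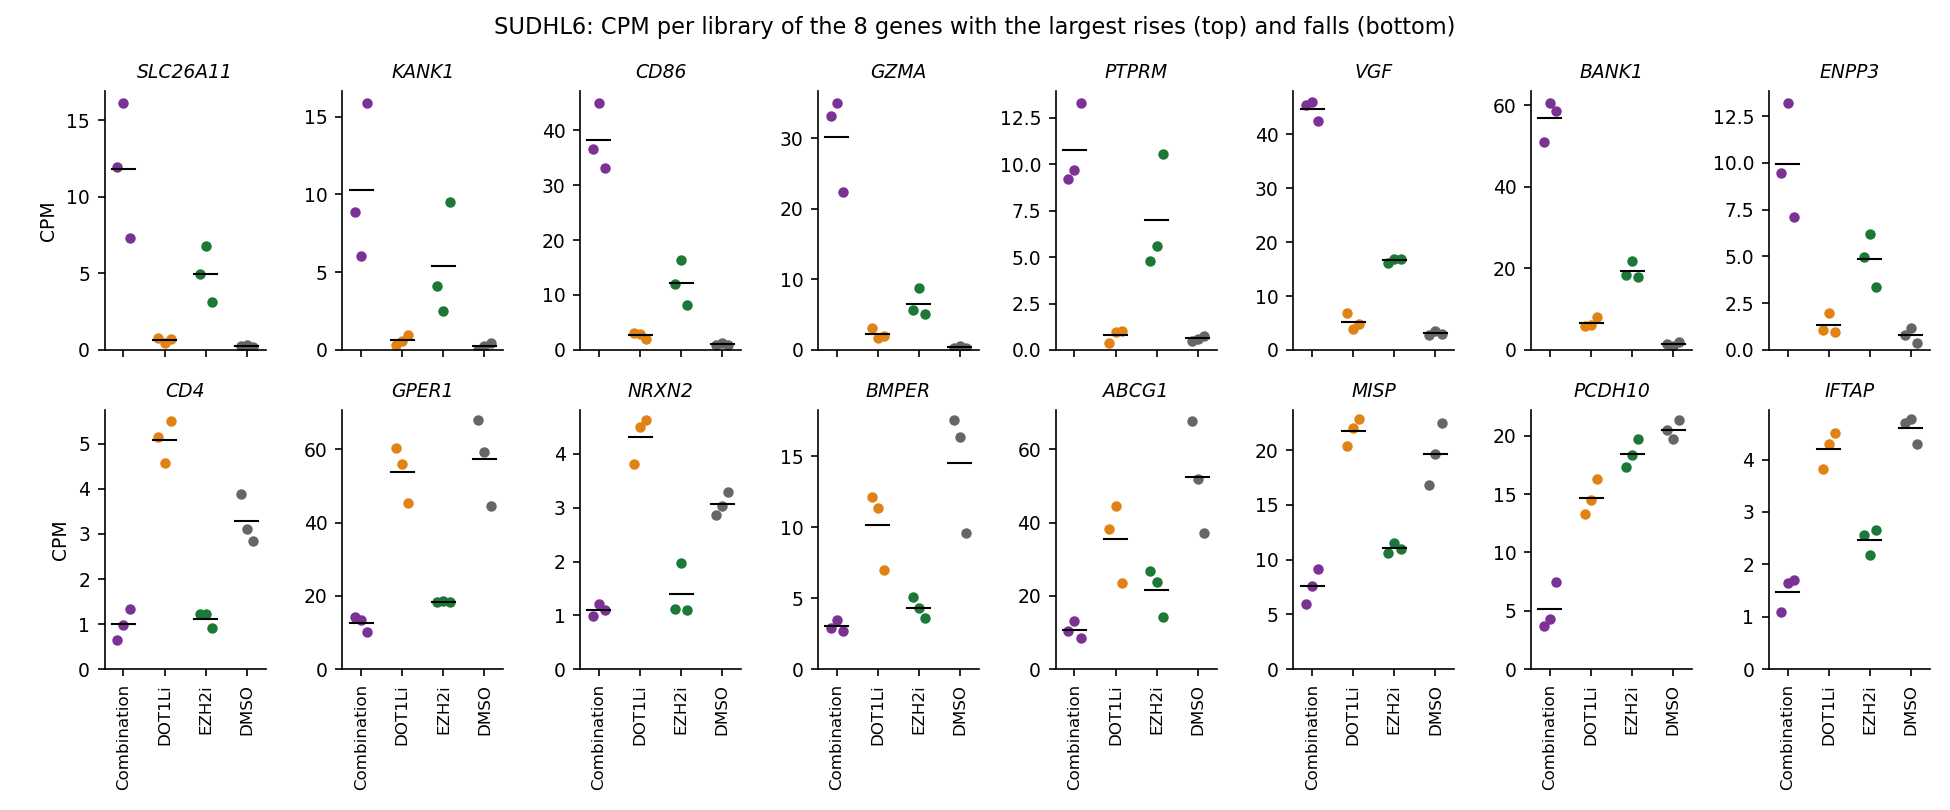
CPM (vertical axes, from 0) in each SUDHL6 library for the 8 protein-coding genes with the largest called rises (top row) and the 8 with the largest called falls (bottom row), with combination, DOT1Li, EZH2i and DMSO from left to right. Points are libraries and lines are means of 3; for CD86 the combination libraries lie at 33.1 to 44.98 CPM and the DOT1Li libraries at 2.08 to 3.04 CPM.

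Some genes had counts in combination libraries and 0 in DOT1Li libraries. In the whole table of 37706 genes, 3939 had counts in a combination library and none in the 3 DOT1Li libraries, while 1866 had the reverse. Each combination library held more counts than any DOT1Li library, and these numbers were not matched for depth. Most of these rest on a few counts: 7 of the 3939, of which 6 code for protein, and 0 of the 1866 reached 30 counts over the 3 libraries. RGS1, a regulator of G protein signalling in activated lymphocytes, averaged 2.57 ± 1.14 CPM in combination libraries (SD, n = 3), at least 36.7-fold above the DOT1Li floor. FSTL5, of the follistatin family, averaged 1.24 ± 0.22 CPM and was at least 17.8-fold higher. The malic enzyme gene ME3 averaged 0.788 ± 0.126 CPM, PARD3B, a cell polarity gene, 0.672 ± 0.158 CPM, and RIMS2, of synaptic vesicle release, 0.646 ± 0.030 CPM in combination libraries. The bounds for these were at least 11.3-fold, 9.60-fold and 9.22-fold higher. All 5 had counts in all 3 EZH2i libraries too.

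The 34 gene lists describe how these changes fall on B cell identity, immune presentation, growth and other programmes. In the text that follows the 2 called members of a list with the smallest adjusted p were named by rule, and further members were chosen after their values were seen. Counts of members are to be read against 14.3% of all genes called higher and 11.2% called lower. These shares depend on level, and the lists were not matched for it. Between 10 and 100 CPM 17.5% of genes rose and 15.4% fell, and from 100 CPM upward 7.54% rose and 35.7% fell. For lists of highly expressed genes the 11.2% is therefore too low a background for falls.

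**Figure D3:**
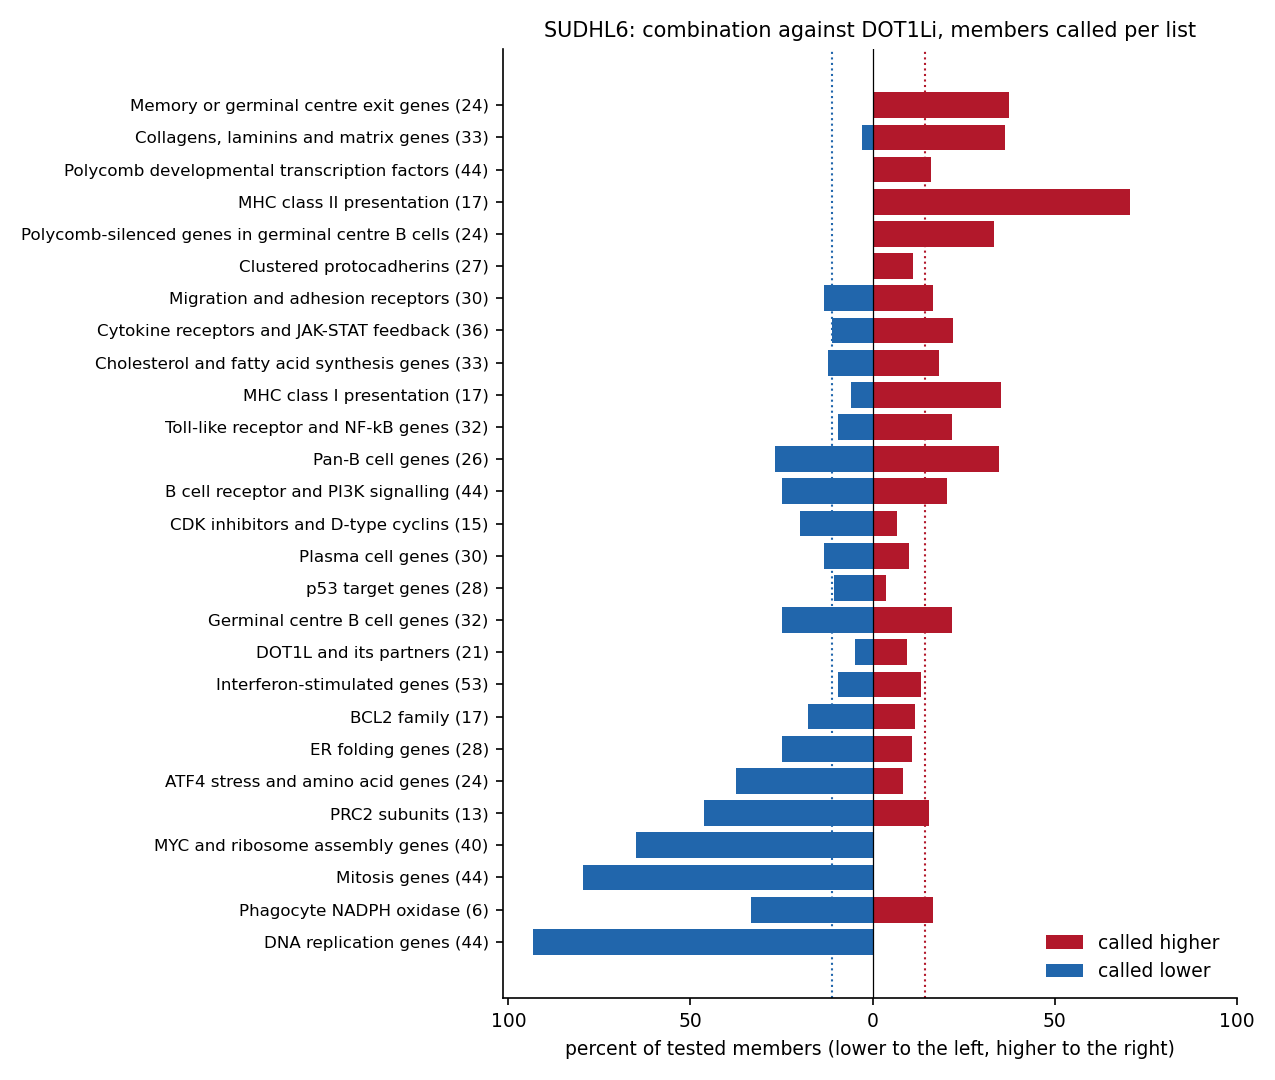
Percent of the tested members of each gene list called higher (bars right) or lower (bars left) in the combination against DOT1Li. Lists of markers of other cell types are left out. The number of members tested is in brackets, and lists are sorted by median log2 fold change. Dotted lines mark the 14.3% of all genes called higher and the 11.2% called lower; MHC class II genes reach 12 of 17 on the right and DNA replication genes 41 of 44 on the left.

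Genes of the B cell lineage moved in both directions. Of 26 pan-B cell genes 9 rose and 7 fell (median log2 fold change 0.05). MS4A1, which encodes the CD20 antigen targeted by rituximab, stood at 297, 316 and 340 CPM in combination libraries, against 58.7, 64.2 and 57.2 CPM in DOT1Li libraries (log2 2.40 ± 0.11, edgeR adjusted p = 1.75e-22). Its groups lay far apart, with each combination library above 290 CPM and each DOT1Li library below 65 CPM. CD22, CD40, FCER2 and EBF1 rose as well, by log2 0.48, 0.57, 0.76 and 0.36. SYK, the kinase that carries the signal of the B cell receptor, fell. It was at 246, 221 and 239 CPM in combination and 528, 499 and 509 CPM in DOT1Li libraries (log2 -1.12 ± 0.06, edgeR adjusted p = 1.19e-18). IKZF1, the lymphoid factor Ikaros, was at 119, 97.9 and 116 CPM in combination and 232, 228 and 232 CPM in DOT1Li libraries (log2 -1.05 ± 0.13). CD24, a surface protein of immature and germinal centre B cells, fell by 0.99 on the log2 scale. PAX5, the factor that holds B cell identity, had a log2 fold change of 0.10 ± 0.10 (edgeR adjusted p = 0.5004).

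Of 32 germinal centre genes 7 rose and 8 fell (median -0.03). BCL6, the master repressor of the germinal centre, was at 29.6, 29.5 and 24.5 CPM in combination and 18.8, 22.2 and 17.1 CPM in DOT1Li libraries. Its log2 fold change was 0.52 ± 0.15 (edgeR adjusted p = 0.00611), and it did not pass without DOT1Li replicate 3 (0.44, edgeR adjusted p = 0.0534). MYBL1 and LMO2, other factors of these cells, rose by log2 0.53 ± 0.14 and by 0.66. POU2AF1, a B cell coactivator, was at 95.9, 95.3 and 99.2 CPM in combination and 136, 131 and 124 CPM in DOT1Li libraries (log2 -0.43 ± 0.06). SPIB, S1PR2, FOXO1, GNA13 and P2RY8 also fell, by log2 -0.67, -0.48, -0.36, -0.30 and -0.24. S1PR2, GNA13 and P2RY8 belong to the signalling that confines B cells to the germinal centre. MME had a log2 fold change of -0.08 ± 0.11 (edgeR adjusted p = 0.682).

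Genes of memory B cells or of leaving the germinal centre rose in 9 of 24 and fell in 0 of 24 cases (median 0.60). KLF2, which keeps lymphocytes quiescent, was at 23.4, 33.5 and 17.1 CPM in combination and 5.37, 7.80 and 5.64 CPM in DOT1Li libraries (log2 1.97 ± 0.19, edgeR adjusted p = 4.27e-11). BTG1, an antiproliferative gene, was at 168, 185 and 147 CPM in combination and 97.9, 97.3 and 78.1 CPM in DOT1Li libraries (log2 0.87 ± 0.09). The 3 libraries of each group did not overlap for either gene. BCL2, which blocks apoptosis, rose by log2 0.58 ± 0.15, TNFRSF13C, the BAFF receptor, by 0.63 ± 0.13, and S1PR1, which lets lymphocytes leave tissue, by 0.71. CD44 and FCRL5 rose by 1.89 and 1.36 from about 1 CPM or less.

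Plasma cell genes showed no common direction, with 3 of 30 higher and 4 lower (median 0.00). PRDM1, the factor that drives plasma cell differentiation, was at 7.90, 7.65 and 11.6 CPM in combination and 8.02, 8.20 and 10.8 CPM in DOT1Li libraries, and the groups overlapped (log2 0.00 ± 0.25, edgeR adjusted p = 1). IRF4 had a log2 fold change of 0.14 ± 0.13 (edgeR adjusted p = 0.494). XBP1, of the secretory programme, was at 166, 157 and 166 CPM in combination and 244, 223 and 224 CPM in DOT1Li libraries (log2 -0.50 ± 0.12, edgeR adjusted p = 0.00106). ELL2, an elongation factor known for immunoglobulin mRNA processing in plasma cells, rose, with 1.26, 1.46 and 1.28 CPM in combination and 0.078, 0.132 and 0.067 CPM in DOT1Li libraries (log2 3.72 ± 0.47).

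The genes of MHC class II, which presents peptides to helper T cells, rose in 12 of 17 and fell in 0 of 17 cases (median 0.46). HLA-DOA, a chain of the HLA-DO regulator of peptide loading, was at 130, 139 and 119 CPM in combination and 79.5, 80.3 and 72.6 CPM in DOT1Li libraries (log2 0.74 ± 0.07, edgeR adjusted p = 9.70e-11). HLA-DQA1, a classical chain, was at 13.2, 11.5 and 9.41 CPM in combination and 5.61, 4.76 and 2.69 CPM in DOT1Li libraries (log2 1.41 ± 0.19). No combination library fell within the range of the DOT1Li libraries in either gene. HLA-DRA, HLA-DPB1, HLA-DMB and the invariant chain CD74 rose by log2 0.38, 0.59, 0.86 and 0.30. CIITA, the coactivator that switches these genes on, had a log2 fold change of 0.16 ± 0.10 (edgeR adjusted p = 0.243). In MHC class I presentation 6 of 17 genes rose and 1 fell (median 0.09). HLA-B was at 678, 707 and 665 CPM in combination and 521, 498 and 474 CPM in DOT1Li libraries (log2 0.46 ± 0.09). HLA-C, HLA-E and HLA-F rose by log2 0.38, 0.39 and 0.65, while the immunoproteasome subunit PSMB9 fell by 0.41. HLA genes are near copies of each other, so reads may be split among them.

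The promoter of HLA-DOA is shown as that of the called class II gene with the smallest adjusted p. It lies at chr6:33009542-33009841 on the minus strand (GRCh38.p14, RefSeq), and its match to CCAAT, searched on both strands, is in capitals.
HLA-DOA: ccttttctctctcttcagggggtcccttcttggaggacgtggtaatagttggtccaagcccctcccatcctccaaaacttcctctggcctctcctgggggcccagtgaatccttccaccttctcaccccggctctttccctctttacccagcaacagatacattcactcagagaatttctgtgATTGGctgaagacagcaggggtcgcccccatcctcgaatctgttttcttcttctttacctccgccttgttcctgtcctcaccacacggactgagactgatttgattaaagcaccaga
CCAAT is the letters bound by the factor NF-Y, which acts at class II promoters with other factors. A match was present in 13 of the 14 class II genes with a promoter (92.9%) and in 36.5% of all promoters of the genes tested. A match describes letters and not binding.

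Of the 53 interferon-stimulated genes tested 7 rose and 5 fell (median -0.07). The rises included guanylate-binding proteins, GTPases of defence inside cells. GBP5 was at 41.6, 50.2 and 34.2 CPM in combination and 8.02, 7.41 and 5.44 CPM in DOT1Li libraries (log2 2.597 ± 0.21, edgeR adjusted p = 2.91e-11), and GBP2 at 45.9, 54.8 and 26.04 CPM in combination and 7.79, 10.3 and 4.77 CPM in DOT1Li libraries (log2 2.47 ± 0.22). GBP4, RSAD2 and CMPK2 rose by log2 1.42, 2.16 and 1.20. IFI35, IFI44, UBE2L6, SP110 and HERC5 fell by 0.29 to 0.48 on the log2 scale. MX1, an antiviral GTPase, had a log2 fold change of -0.35 ± 0.20 (edgeR adjusted p = 0.217). The number of falls was 9 with the replicate number as a block and 15 in a fit of the SUDHL6 libraries alone.

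Genes of DNA replication gave the most one-sided list: 41 of 44 fell and 0 rose (median -0.44). E2F2, a transcription factor of the G1 to S transition, was at 116, 119 and 122.7 CPM in combination libraries, against 222, 234 and 217 CPM in DOT1Li libraries (log2 -0.91 ± 0.07, edgeR adjusted p = 5.45e-14). ORC1, of the complex that marks replication origins, was at 51.9, 48.8 and 52.1 CPM in combination and 81.0, 83.4 and 88.3 CPM in DOT1Li libraries (log2 -0.73 ± 0.07). In both genes the libraries of a group lay close together and well apart from the other group. UHRF1, the cyclin CCNE2, the helicase loader CDC45 and the helicase subunit MCM4 fell by 0.80, 0.62, 0.56 and 0.56 on the log2 scale. The 3 members that did not pass were GINS2, ORC6 and RPA3.

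Of 44 mitosis genes 35 fell and 0 rose (median -0.33). CCNA2, the A-type cyclin, was at 118, 111 and 122 CPM in combination and 171, 180 and 180 CPM in DOT1Li libraries (log2 -0.59 ± 0.06, edgeR adjusted p = 1.34e-10). MYBL2, a factor of cell cycle gene expression, was at 613, 605 and 628 CPM in combination and 943, 930 and 952 CPM in DOT1Li libraries (log2 -0.61 ± 0.07). PLK1, CCNB2, BUB1B and AURKA fell by 0.62, 0.57, 0.52 and 0.51 on the log2 scale. MKI67, the proliferation antigen, had a log2 fold change of -0.24 ± 0.19 (edgeR adjusted p = 0.387). Cell numbers and cell cycle phases were not among the data used here.

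The promoters of E2F2 and CCNB2 are shown as those of the called replication and mitosis genes with the smallest adjusted p that hold the motif searched for their list. E2F2 lies at chr1:23531184-23531483 on the minus strand, with a match to an E2F motif (TTTCCCGC or TTTGGCGC, both strands) in capitals. CCNB2 lies at chr15:59104896-59105195 on the plus strand, with a match to the cell cycle homology region (TTTGAA, both strands) in capitals. Both are RefSeq promoters of GRCh38.p14.
E2F2: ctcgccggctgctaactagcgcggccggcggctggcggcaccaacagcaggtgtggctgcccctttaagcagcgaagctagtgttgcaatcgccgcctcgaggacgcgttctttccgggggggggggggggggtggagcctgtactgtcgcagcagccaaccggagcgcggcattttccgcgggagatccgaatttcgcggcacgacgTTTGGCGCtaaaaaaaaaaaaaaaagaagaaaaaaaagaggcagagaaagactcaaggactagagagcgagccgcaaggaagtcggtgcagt
CCNB2: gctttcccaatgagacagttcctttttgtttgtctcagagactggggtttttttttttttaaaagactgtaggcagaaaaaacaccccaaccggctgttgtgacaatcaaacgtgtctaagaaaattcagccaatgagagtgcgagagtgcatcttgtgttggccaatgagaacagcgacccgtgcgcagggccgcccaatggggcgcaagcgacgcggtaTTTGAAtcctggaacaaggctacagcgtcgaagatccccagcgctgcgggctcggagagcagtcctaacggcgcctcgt
The E2F motif was present in 18 of 36 replication promoters (50%) and in 3.64% of all promoters. TTTGAA was present in 26 of 37 mitosis promoters (70.3%) and in 9.97% of all. The motifs were searched separately, and none of those named here contains another.

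Among D-type cyclins, their kinases and their inhibitors, 1 of 15 genes rose and 3 fell. CCND2 was at 7.35, 7.35 and 7.46 CPM in combination and 1.71, 1.12 and 1.68 CPM in DOT1Li libraries (log2 2.30 ± 0.24, edgeR adjusted p = 8.35e-10). CCND3 moved the other way, with 168, 162 and 189 CPM in combination and 274, 248 and 281 CPM in DOT1Li libraries (log2 -0.63 ± 0.07). CDK4 and CDKN2C fell by 0.41 and 0.26. The inhibitor gene CDKN1A had a log2 fold change of -0.25 ± 0.16 (edgeR adjusted p = 0.270), and CDKN2A had 0 counts in the 6 libraries. With the replicate number as a block 2 rose and 5 fell.

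Of 40 genes of MYC and ribosome assembly 26 fell and 0 rose (median -0.28). NOLC1, a nucleolar chaperone, was at 468, 435 and 480 CPM in combination and 659, 648 and 665 CPM in DOT1Li libraries (log2 -0.51 ± 0.06, edgeR adjusted p = 2.99e-08). NIP7, of ribosome assembly, was at 48.1, 43.8 and 50.6 CPM in combination and 72.5, 74.5 and 72.8 CPM in DOT1Li libraries (log2 -0.63 ± 0.08). MYC itself was at 259, 253 and 291 CPM in combination and 328, 329 and 330 CPM in DOT1Li libraries, with no overlap (log2 -0.30 ± 0.09, edgeR adjusted p = 0.0116). MYC did not pass without combination replicate 1 (-0.28, edgeR adjusted p = 0.0516) or combination replicate 2 (-0.26, edgeR adjusted p = 0.0725). LDHA, the lactate dehydrogenase known as a MYC target, fell by 0.51 on the log2 scale. Its promoter is shown as that of the called gene of this list with the smallest adjusted p that holds the E-box CACGTG, which reads the same on both strands and is in capitals. It lies at chr11:18394313-18394612 on the plus strand (GRCh38.p14, RefSeq).
LDHA: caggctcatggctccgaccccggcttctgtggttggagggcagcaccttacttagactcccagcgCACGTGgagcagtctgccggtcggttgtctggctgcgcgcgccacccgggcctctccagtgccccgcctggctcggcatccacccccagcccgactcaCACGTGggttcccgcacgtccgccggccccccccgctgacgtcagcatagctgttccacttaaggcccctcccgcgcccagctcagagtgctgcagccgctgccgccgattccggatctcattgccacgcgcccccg
CACGTG was present in 16 of 33 promoters of this list (48.5%) and in 9.93% of all.

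Polycomb repression is best known at developmental transcription factors, and here 7 of the 44 tested rose and 0 fell (median 0.47), a share near the background of rises. Of the list, 47 genes had 0 counts in the 6 libraries. GATA3 was at 23.1, 23.4 and 12.9 CPM in combination and 12.9, 10.3 and 9.68 CPM in DOT1Li libraries (log2 0.86 ± 0.18, edgeR adjusted p = 0.000526). Its lowest combination library was level with its highest DOT1Li library. IRX3 was at 17.6, 21.6 and 17.4 CPM in combination and 10.98, 9.92 and 11.02 CPM in DOT1Li libraries (log2 0.83 ± 0.15). HOXD12, HOXC4, DLX1 and HOXC10 rose by 1.76, 1.54, 1.48 and 1.13 and stayed under 2 CPM in each combination library. Among genes known to be silenced by Polycomb in germinal centre B cells, 8 of 24 rose and 0 fell (median 0.28). SLAMF1, a receptor of lymphocyte contacts, was at 2.96, 1.58 and 2.14 CPM in combination and 0.234, 0.264 and 0 CPM in DOT1Li libraries (log2 3.71 ± 0.47, edgeR adjusted p = 4.37e-08). TNFRSF14, a receptor often lost in germinal centre lymphomas, was at 52.0, 62.6 and 54.6 CPM in combination and 37.2, 35.1 and 33.8 CPM in DOT1Li libraries (log2 0.67 ± 0.11). With the replicate number as a block 2 genes of that list fell. Clustered protocadherins rose in 3 of 27 and fell in 0 of 27 cases, and 1 rose by DESeq2. PCDHGC3 was at 46.04, 42.1 and 41.9 CPM in combination and 27.6, 26.1 and 26.3 CPM in DOT1Li libraries; genes of this cluster share exons. PCDHB5 was at 0.823, 1.58 and 1.96 CPM in combination and 0.390, 0.595 and 0.605 CPM in DOT1Li libraries (log2 1.41 ± 0.45).

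PRC2 subunits fell in 6 of 13 and rose in 2 of 13 cases (median -0.19). EZH2 was at 204, 198 and 204 CPM in combination and 254, 273 and 255 CPM in DOT1Li libraries (log2 -0.37 ± 0.06, edgeR adjusted p = 6.38e-06). RBBP7, SUZ12 and EED, the partners of EZH2 in the complex, fell by 0.37, 0.28 and 0.28. EZH1, the other catalytic subunit, was at 51.3, 52.8 and 47.5 CPM in combination and 38.7, 39.9 and 35.3 CPM in DOT1Li libraries (log2 0.41 ± 0.10), and JARID2 rose by 0.53. DOT1L was at 158, 150 and 142 CPM in combination and 154, 152 and 140 CPM in DOT1Li libraries (log2 0.01 ± 0.08, edgeR adjusted p = 0.986), and 2 of 21 genes of DOT1L and its partners rose while 1 fell. The rises are ELL2 and MLLT6, with MLLT6 at 0.23; by DESeq2, and with DESeq2's size factors, 1 rose. The fall is the menin gene MEN1 (-0.19), which passed in 1 of the 6 fits that leave out a library, the fit without combination replicate 3.

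Signalling lists were mixed. Of 44 genes of the B cell receptor and PI3K pathway 9 rose and 11 fell (median 0.00). The falls included SYK, GRAP, VAV1, BLNK, BTK, PIK3CG, CD81, PIK3CD, PIK3AP1 and GRB2, at log2 -1.12 to -0.21. The rises included BANK1, the phosphatase genes DUSP5 (2.20) and PTPN6 (0.40), and PIK3IP1 (1.11), an inhibitor of PI3K. Of 36 cytokine receptor and JAK-STAT genes 8 rose and 4 fell (median 0.13). IL6ST, the gp130 chain, was at 14.4, 17.4 and 11.3 CPM in combination and 5.30, 5.03 and 4.03 CPM in DOT1Li libraries (log2 1.59 ± 0.19), and STAT5A and STAT4 rose by 0.88 and 2.62. In the Toll-like receptor and NF-kB list 7 of 32 rose and 3 fell, and falls numbered 6 in a fit of the SUDHL6 libraries alone. TLR4, the receptor of lipopolysaccharide, rose by 0.84 ± 0.12, and ICAM1, an adhesion ligand, fell by 0.86 on the log2 scale. Among migration and adhesion receptors 5 of 30 rose and 4 fell. ITGA6, an integrin that binds laminin, was at 355, 305 and 292 CPM in combination and 96.9, 92.4 and 75.7 CPM in DOT1Li libraries (log2 1.84 ± 0.13, edgeR adjusted p = 1.25e-14).

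Of 33 genes of collagens, laminins and matrix 12 rose and 1 fell (median 0.51). COL6A1 was at 7.52, 8.07 and 7.52 CPM in combination and 2.26, 2.12 and 2.15 CPM in DOT1Li libraries (log2 1.82 ± 0.25), and the laminin gene LAMA5 at 4.55, 8.44 and 4.71 CPM in combination and 1.40, 1.59 and 1.01 CPM in DOT1Li libraries (log2 2.13 ± 0.34). Other rises were small or came from low levels. In the BCL2 family 2 of 17 rose, BCL2 and the death gene BMF (0.84 ± 0.16), and 3 fell, BIK, BCL2L1 and MCL1, at -0.86, -0.48 and -0.25. CYBB, the core of the NADPH oxidase of phagocytes, was at 0.110, 0.182 and 0.550 CPM in combination and 1.17, 1.19 and 0.739 CPM in DOT1Li libraries. It fell by 1.87 ± 0.55 on the log2 scale but did not pass without combination replicate 1 (-1.47, edgeR adjusted p = 0.0672). Of the 6 oxidase genes 1 rose, NCF4 by 0.39, and 2 fell; 4 fell by DESeq2.

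In cholesterol and fatty acid synthesis 6 of 33 genes rose and 4 fell, with 12 rises when the replicate number was a block. SQLE, the epoxidase of sterol synthesis, was at 200, 165 and 195 CPM in combination and 124, 113 and 105 CPM in DOT1Li libraries (log2 0.71 ± 0.09). The exporters ABCG1 and ABCA1 fell by 1.73 and 0.59. Of 24 genes of the ATF4 response and amino acid supply 2 rose and 9 fell. VLDLR, a lipoprotein receptor, was at 173, 172 and 195 CPM in combination and 291, 286 and 292 CPM in DOT1Li libraries (log2 -0.69 ± 0.08, edgeR adjusted p = 2.08e-08), and MTHFD2, of mitochondrial folate metabolism, at 304, 289 and 317 CPM in combination and 398, 378 and 405 CPM in DOT1Li libraries. Of 28 ER folding genes 3 rose and 7 fell, with 11 falls in the block fit. The chaperone CALR fell by 0.32 and the sensor ERN1 rose by 0.79. Of 28 p53 targets 1 rose and 3 fell, against 4 and 7 in the block fit; TRIAP1 fell by 0.47 ± 0.09. FDXR, another of the falls (-0.27), did not pass without DOT1Li replicate 3 or combination replicates 1 or 2, with edgeR adjusted p from 0.0532 to 0.141.

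Markers of other cell types were measured as lists. The summed level of 13 NK and cytotoxic markers was 30.3 to 42.9 CPM in combination and 6.22 to 8.41 CPM in DOT1Li libraries. GZMA, with the values given above, made up most of the sum in combination libraries. Of the 3 tested 2 rose, GZMA and NKG7, and NKG7 was at 5.43, 6.74 and 6.85 CPM in combination and 4.44, 3.64 and 3.63 CPM in DOT1Li libraries. NKG7 (0.70 ± 0.22) did not pass without DOT1Li replicate 2 or 3 or combination replicate 2 or 3, with edgeR adjusted p from 0.0611 to 0.0711, and 4 of the 13 had 0 counts in the 6 libraries, GNLY among them. T cell markers summed to 127 to 135 CPM in combination and 132 to 146 CPM in DOT1Li libraries, with BCL11B (0.90 ± 0.16) and TRAC (0.81 ± 0.16) higher, CD4 and ZAP70 (-0.34 ± 0.08) lower, and 8 of 20 at 0 counts. Fibroblast and endothelial markers summed to 146 to 159 CPM in combination and 127 to 156 CPM in DOT1Li libraries, with 2 of 9 higher, PDGFRB (1.06 ± 0.19) and ENG (0.68 ± 0.11), and 4 higher in the block fit. Erythroid and megakaryocytic markers summed to 5.54 to 6.72 CPM in combination and 4.23 to 4.97 CPM in DOT1Li libraries. Of these ITGA2B (1.07 ± 0.31) and ITGB3 (1.86 ± 0.60) rose, and ITGB3 did not pass without DOT1Li replicate 1 or 3 or combination replicate 3, with edgeR adjusted p from 0.0599 to 0.0907. Epithelial markers summed to 2.57 to 4.88 CPM in combination and 2.49 to 3.44 CPM in DOT1Li libraries. CLDN4 (1.41 ± 0.49) and ESRP1 were higher; ESRP1 had 24 counts in combination and 0 in DOT1Li libraries, and CLDN4 did not pass without DOT1Li replicate 3 or combination replicate 1 (edgeR adjusted p = 0.204 and 0.170). In a fit of the SUDHL6 libraries alone 0 of the epithelial and 1 of the erythroid and megakaryocytic markers rose. Neuronal markers summed to 94.3 to 112 CPM in combination and 114 to 130 CPM in DOT1Li libraries, and myeloid markers to 20.6 to 23.4 CPM in combination and 21.6 to 26.8 CPM in DOT1Li libraries. Called were 0 of 8 neuronal and 0 of 7 myeloid markers, and 1 neuronal marker fell and 1 myeloid marker rose in the block fit. The part of other cell types in the results was not tested.

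Most genes called with DOT1Li present were also called for EZH2i alone. EZH2i against DMSO raised 2493 genes (14% of those tested) and lowered 1538 (8.67%), and these libraries are shared with neither group of the comparison above. In all, 1729 genes rose in both comparisons, 68% of the rises with DOT1Li present and 69.4% of those without, and 1222 fell in both, 61.2% of the falls with DOT1Li present and 79.5% of those without. Called in opposite directions were 0 genes. Of the 2542 genes that rose in the combination against DOT1Li, 2502 had a positive log2 fold change in EZH2i against DMSO, with a median of 0.57. Of the 1996 that fell, 1956 had a negative one, with a median of -0.26. Among lists, 41 replication genes fell in the combination against DOT1Li and 30 in EZH2i against DMSO, as did 35 and 19 mitosis genes and 26 and 30 genes of MYC and ribosome assembly, while 12 and 11 MHC class II genes rose.

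**Figure D4:**
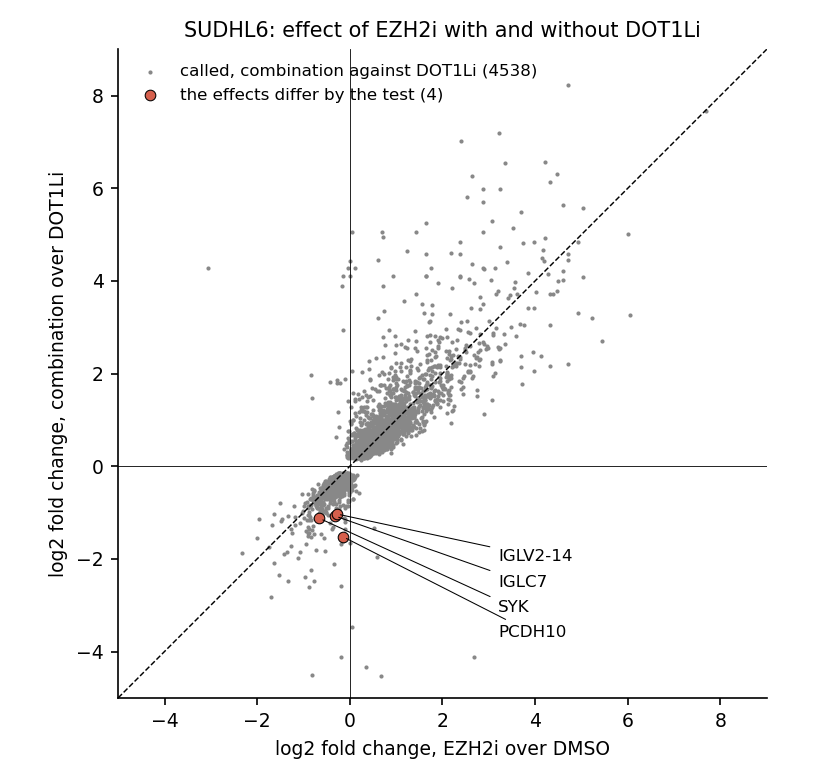
Log2 fold change of the combination over DOT1Li (vertical axis) against that of EZH2i over DMSO (horizontal axis) in SUDHL6, for the 4538 genes called in the combination against DOT1Li, with a dashed line of equal effects. Genes were selected on the vertical axis, and the 4 labelled genes are those whose effects differed by the test. Some points far from the centre rest on few counts and others do not, such as CD86 (3.55 and 3.85, combination mean 38.2 CPM).

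The difference between these effects was tested directly, as the combination minus DOT1Li, minus EZH2i plus DMSO, on the log2 scale. It called 0 genes higher and 4 lower (0.0225% of 17749). An unadjusted p under 0.05 was found for 756 genes, which is less than a share of 0.05 of those tested. DESeq2 called 0 higher and 7 lower. Over the called rises the median difference was 0.06 and over the called falls -0.08. These genes were selected on the combination against DOT1Li, which is part of the difference. The signs of both medians are therefore partly fixed by that choice. The SE of a single gene had a median of 0.14 among called genes with a mean log2 CPM of at least 1. It does not measure the error of such medians. A difference that misses the threshold does not show equal effects, and the limit of detection with 3 libraries a group lay well above the SE. In simulated data a true difference of 0.5 was recovered in 34 of 100 genes, and a difference of 1 in 80 of 100. These changes were set only in genes averaging at least 1 CPM in DMSO libraries, so the rates do not cover lower genes. SYK was lower than the single effects add up to. Its CPM were 246, 221 and 239 in combination, 528, 499 and 509 in DOT1Li, 370, 326 and 356 in EZH2i and 569, 554 and 543 in DMSO libraries. The difference was -0.46 ± 0.09 (edgeR adjusted p = 0.0230), and it passed in 2 of 12 fits that leave out a library, those without EZH2i replicate 2 or combination replicate 1. PCDH10 was at 17.3, 18.3 and 19.7 CPM in EZH2i and 20.5, 19.7 and 21.3 CPM in DMSO libraries, close together, beside the lower combination values given above (difference -1.37 ± 0.25, edgeR adjusted p = 0.0214). It passed in 3 of 12 such fits, those without DOT1Li replicate 1, EZH2i replicate 1 or combination replicate 3. The other 2 are immunoglobulin lambda genes, named after their values were seen, whose reads may be split among near copies. IGLC7 was at 77.8, 72.2 and 64.8 CPM in combination and 157, 148 and 147 CPM in DOT1Li libraries, next to 140, 158 and 134 in EZH2i and 189, 178 and 175 in DMSO libraries (difference -0.75 ± 0.11, edgeR adjusted p = 0.00102). IGLV2-14 had a difference of -0.74 ± 0.12 (edgeR adjusted p = 0.0214) and passed in 3 of 12 such fits, those without DMSO replicate 1, EZH2i replicate 1 or combination replicate 1. With the replicate number as a block 2 genes were higher and 16 lower. These include SYK (-0.46, edgeR adjusted p = 0.00031), the plasma cell and germinal centre marker CD38 (-0.60, edgeR adjusted p = 0.0147), CD24 (-0.48) and ORC1 (-0.37), and the higher ones include PRKCZ (0.59).

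Within SUDHL6 the first principal component of the 1000 most variable genes held 65.4% of the variance. Combination libraries lay at 28.1 to 32.4, EZH2i at 9.69 to 14.8, DOT1Li at -16.0 to -11.6 and DMSO at -28.3 to -26.4. The second component held 8.69% and set the libraries with DOT1Li, combination at -4.51 to -3.15 and DOT1Li at -14.4 to -8.92, below EZH2i at 7.97 to 10.9 and DMSO at 4.02 to 7.36.

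In Oci-Ly7 the combination raised 2012 genes over DOT1Li (11.3%) and lowered 1200 (6.76%). Rises numbered 1924 (10.8%) and falls 1529 (8.61%) in Oci-Ly8, and rises 2258 (12.7%) and falls 1580 (8.9%) in Oci-Ly18. In all 4 lines 125 genes rose and 129 fell. The log2 fold change in SUDHL6 minus the mean of the other lines was higher in 645 genes (3.63%) and lower in 965 (5.44%). Of the 645, 512 also rose in SUDHL6 and 133 were not called there. Of the 965, 523 also fell in SUDHL6, 398 were not called there and 44 rose there by less than elsewhere. Genes with counts in every line made up 88.6% of those tested, and the rest could not pass this test. With the replicate number as a block 989 genes were higher and 1409 lower.

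B cell genes differed in both directions between SUDHL6 and the mean of the other lines. Of 26 pan-B cell genes 6 had a higher log2 fold change in SUDHL6 and 5 a lower one. Of 32 germinal centre genes 6 were higher and 7 lower. The lower ones included CD24 (-1.43), IKZF1 (-1.02), BLNK (-0.93), KLHL6 (-0.82) and SYK (-0.82). Examples of higher ones follow. MS4A1 had log2 fold changes of 2.40 in SUDHL6, -0.23 in Oci-Ly7, 0.02 in Oci-Ly8 and 0.21 in Oci-Ly18 (difference 2.40 ± 0.12, edgeR adjusted p = 1.88e-20). BANK1 had 3.07 in SUDHL6, 0.50 in Oci-Ly7, -0.45 in Oci-Ly8 and 0.22 in Oci-Ly18 (difference 2.98 ± 0.18). CD86 rose in SUDHL6 and in Oci-Ly18 (1.70, edgeR adjusted p = 0.0303), fell in Oci-Ly8 (-0.80) and had -0.38 in Oci-Ly7 without passing (difference 3.68 ± 0.42, edgeR adjusted p = 3.22e-08). BCL6 had 0.52 in SUDHL6, -0.35 in Oci-Ly7, 0.17 in Oci-Ly8 and -0.52 in Oci-Ly18 (difference 0.75 ± 0.16, edgeR adjusted p = 0.00131), and MYBL1 differed by 0.82 ± 0.16. Of the 17 MHC class II genes 9 had a larger rise in SUDHL6 than the mean of the other lines. The extreme genes of SUDHL6 were chosen for their size there, so a difference from the other lines is partly fixed by that choice.

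Other genes went down in SUDHL6 relative to the other lines. DNTT, the terminal transferase of B cell precursors, was at 588, 618 and 686 CPM in combination and 1129, 1131 and 1117 CPM in DOT1Li libraries of SUDHL6 (log2 -0.84 ± 0.13). It rose by 1.36 in Oci-Ly7, 2.73 in Oci-Ly8 and 4.27 in Oci-Ly18 (difference -3.62 ± 0.23, edgeR adjusted p = 2.52e-14). BEST3, a bestrophin channel gene, fell in SUDHL6 (-1.44 ± 0.11) and rose in the other lines by 0.60 to 1.97 (difference -2.56 ± 0.13). TFDP2, a partner of E2F factors, fell in SUDHL6 (-0.59 ± 0.06) and rose in the others by 0.29 to 0.39 (difference -0.91 ± 0.07). PRDM1 had 2.39 in Oci-Ly7, 0.56 in Oci-Ly8 and 0.18 in Oci-Ly18, of which the first passed (difference -1.04 ± 0.29, edgeR adjusted p = 0.0174). That difference did not pass without SUDHL6 DOT1Li replicate 3 or SUDHL6 combination replicates 1 or 2, with edgeR adjusted p from 0.0606 to 0.0934. XBP1 rose in Oci-Ly7 (0.37) and Oci-Ly18 (0.65), against its fall in SUDHL6 (difference -0.85 ± 0.13). TNFRSF13C had 0.63 in SUDHL6, 0.91 in Oci-Ly7, 0.10 in Oci-Ly8, where it did not pass, and 3.45 in Oci-Ly18 (difference -0.86 ± 0.15). CD4 had a positive log2 fold change in the other lines (1.05 to 3.37), of which the value in Oci-Ly8 passed; its difference did not pass without Oci-Ly18 combination replicate 2 (-3.83, edgeR adjusted p = 1). Of 44 replication genes 25 had a lower log2 fold change in SUDHL6 than the mean of the other lines, as did 13 of 44 mitosis genes and 18 of 53 interferon-stimulated genes.

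**Figure D5:**
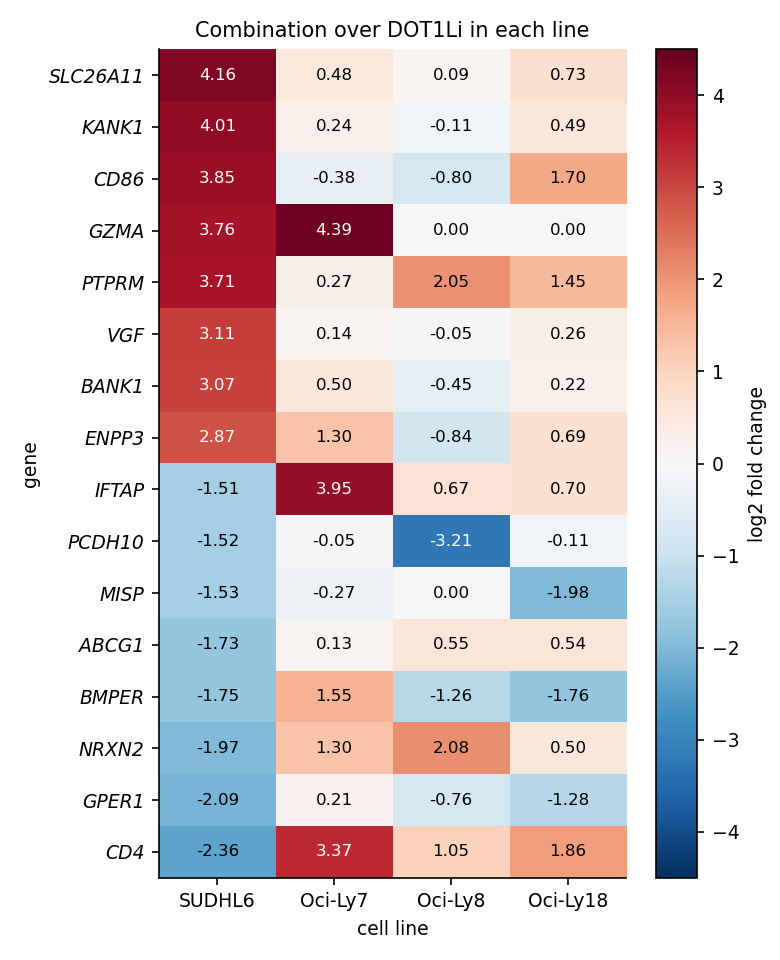
Log2 fold change of the combination over DOT1Li (colour and number) in each line (columns) for the 8 largest rises and 8 largest falls in SUDHL6 (rows). The genes were chosen for their size in SUDHL6, values of 0.00 are genes without counts in that line, and VGF shows 3.11 in SUDHL6 beside -0.05 to 0.26 in the other lines.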

How the data were processed

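Cells were harvested after 6 days, and an xGen kit that selects polyadenylated RNA and keeps strand was used, per the labels' protocols. The submitters' processing notes name STAR, DESeq2 and the GRCh38 (hg38) build; the sources used here name no versions, counting program, strand setting or annotation. The authors deposited raw read counts per gene for 37706 Ensembl genes in 48 libraries, without normalization. Columns were assigned from headers that carry line, treatment and replicate number. The growth protocol lists Oci-Ly8 in 2 places and does not list Oci-Ly7; line names here are those of the sample labels.

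In R 4.3.3, edgeR 4.0.16 with filterByExpr on 16 groups kept 17749 genes, 13502 of them protein coding. TMM scaling, 16 group means (32 residual degrees of freedom) and robust quasi-likelihood F tests followed, with Benjamini-Hochberg adjustment over all genes tested. SE was taken as the absolute log2 value divided by the root of F. Log2 CPM used a prior count of 2. Gene coordinates and exonic lengths are from GENCODE 29, and promoters from RefSeq (GRCh38.p14). The code was tested on simulated data. Replicates differed by more than sampling noise (chi-square per degree of freedom 2.18 to 4.1).

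Named genes were a panel, the 8 largest rises and 8 largest falls, up to 2 members per list by adjusted p, all called markers of other cell types, 3 genes in each direction by p for the differences between effects and between lines, and 5 genes with 0 counts in DOT1Li libraries. Members, lists and tests were chosen with earlier results of these data known. The rule takes genes for the difference between effects only where the test called them.

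Replicate numbers come from the labels, which do not say what they mark. Deviations from the group mean correlated between same-numbered combination and DOT1Li libraries (0.271, 0.268 and 0.41 over 11566 genes). Over all SUDHL6 group pairs the correlations were 0.182 to 0.43, so the numbers may mark pairs of libraries. The main tests have no block, since the labels do not define the numbers, and their SE and p-values leave such pairing out. Blocked values are given for the total counts and for counts of calls that they move by over 1.5 times. Alternatives were DESeq2 1.42.0, its size factors, no filter on low counts, fits of SUDHL6 or of the 6 libraries alone, the replicate block and leaving out libraries. Some genes counted in the lists are not reported here by name.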

Additional observations from a re-analysis of the deposited data

Results flagged for a closer look

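The effect of adding EZH2i to DOT1Li differed between SUDHL6 and the mean of Oci-Ly7, Oci-Ly8 and Oci-Ly18 for 22 named genes, by the test of the difference itself (edgeR, adjusted p under 0.05 over 17749 genes). On the log2 scale the difference was 3.8 for KANK1, 3.72 for SLC26A11, 3.68 for CD86, 2.99 for VGF, 2.98 for BANK1, 2.48 for ENPP3, 2.4 for MS4A1, 0.82 for MYBL1 and 0.75 for BCL6. It was -4.45 for CD4, -3.62 for DNTT, -3.28 for IFTAP, -3.26 for NRXN2, -2.56 for BEST3, -2.14 for ABCG1 and -1.48 for GPER1. Smaller negative differences were -1.04 for PRDM1, -0.91 for TFDP2, -0.86 for TNFRSF13C, -0.85 for XBP1, -0.4 for MYC and -0.26 for EZH2. Most of these genes were chosen for their size in SUDHL6 or for this difference.

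The effect of EZH2i differed between cells with and without DOT1Li for 4 genes, again by the test of the difference. The values were -1.37 for PCDH10, -0.75 for IGLC7, -0.74 for IGLV2-14 and -0.46 for SYK. All 4 fell further with DOT1Li present, and 3 of them also fell in EZH2i against DMSO.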

How the results depend on the processing

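Genes called in the combination against DOT1Li had the same direction in each setting in which they were called again. Rises numbered 2259 to 3098 and falls 1894 to 3001 over the settings that keep all SUDHL6 libraries, against 2542 and 1996; the highest number of rises came from the replicate block, which gave 2533 falls, and the highest number of falls from SUDHL6 libraries alone, and rises made up 48.4 to 58.4% of calls over all settings against 56%. Leaving out 1 library gave 1950 to 2249 rises and 1436 to 1732 falls. For the EZH2i effect with minus without DOT1Li, 1 gene was higher and 10 lower with SUDHL6 libraries alone, 2 and 16 with the replicate block, 7 lower with DESeq2, 14 lower without the low-count filter, and leaving out 1 library gave 0 higher and 1 to 3 lower. For SUDHL6 minus the other lines the block gave 989 higher genes, and leaving out 1 library gave 435 to 701 higher and 678 to 1030 lower. A setting added after seeing the data leaves out Oci-Ly8 DMSO and DOT1Li replicate 3, which hold fewer counts from long transcripts. It gave 3013 rises and 2632 falls in SUDHL6 and 895 higher and 1426 lower in the comparison of lines.

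Uncalled DOT1L changed sign without the filter (-0.005), in SUDHL6 alone (-0.0053) and in the 6 libraries alone (-0.0059), and ran from -0.0304 to 0.0482 when 1 library was left out. Uncalled PRDM1 did so under the same 3 settings (-0.0126, -0.0135 and -0.0149) and ran from -0.2113 to 0.1534 when 1 library was left out. Besides the genes named above, PCDHB5 did not pass by DESeq2 (adjusted p = 0.904) or in 5 of 6 fits that leave out a library, and MEN1 (0.115) and CLDN4 (0.059) did not pass without the filter. The EZH2 difference between lines did not pass without the filter (edgeR adjusted p = 0.0548) or without SUDHL6 DOT1Li replicate 2 (0.0564), nor the MYC difference without SUDHL6 combination replicate 2 (0.0512). The cause was not tested. Depth limits calls of genes under 0.1 CPM.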
